A study of Homo sapiens with 18 samples.

Results

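The data described here are the difference between the olaparib responses of PARP1 knockout and wild-type T47D cells, a genotype by drug interaction measured in 12 of the 18 RNA-seq libraries of the study. T47D is an established human breast cancer line of luminal, hormone receptor-positive type. The study profiled marketed PARP inhibitors and sequenced polyadenylated RNA from T47D cells labelled WT (titles with AAV) and PARP1 KO (titles with JL) after 48 hours with DMSO, olaparib or niraparib (10 μmol/L each). The 12 libraries are WT with DMSO, WT with olaparib, PARP1 KO with DMSO and PARP1 KO with olaparib, with 3 libraries in each group. The members were set by these labels and not by any measured value. For each gene the interaction was the olaparib response of PARP1 KO cells minus that of WT cells on the log2 scale. A negative value thus marks a gene whose level after olaparib, relative to DMSO, was lower in PARP1 KO than in WT cells. The labels give 1 knockout line against 1 WT line, so the effect of PARP1 loss and any other difference between these lines cannot be told apart. The methods describe 3 dishes for each condition of the omics experiments, without tying a library to a dish, and P values measure only the spread between such parallel samples, which may be technical.

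PARP1 is a nuclear enzyme that binds DNA breaks and attaches chains of ADP-ribose to itself and to neighbouring proteins, which recruits repair factors. Olaparib occupies the NAD+ pocket of PARP1 and PARP2, blocks this reaction and also holds the enzyme on DNA, where the trapped complex is an obstacle to replication forks. A cell without PARP1 protein has none to trap, whereas PARP2 and other proteins bound by the drug remain. The interaction asks which responses to olaparib differed between the PARP1 KO and WT lines. PARP1 protein was not measured in these data.

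The genotype labels were checked on PARP1 (gene at chr1:226360691-226408093, minus strand, GRCh38). Its level was 342, 369 and 363 CPM (counts scaled to library size, after TMM normalisation) in WT with DMSO, 334, 344 and 339 in WT with olaparib, 24.5, 24 and 24.6 in PARP1 KO with DMSO and 24.6, 27.1 and 25.6 in PARP1 KO with olaparib. PARP1 KO libraries thus held 7.19% of the WT mean, without overlap (25.1 ± 1.12 against 349 ± 14.1 CPM, SD, n = 6 each, exact two-sided permutation test p = 0.0022). All 10 luminal markers were expressed, with a summed level of 10700 to 15700 CPM that was lowest with olaparib in WT (10700 to 11100). Of the markers of other cell types, 2 of 6 for basal cells (KRT5, KRT14), 2 of 7 for fibroblasts (PDGFRB, DCN), 2 of 6 for immune cells (CD3E, LYZ) and 3 of 5 for endothelium (PECAM1, CDH5, TEK) were below 0.1 CPM in every library. The others were not all near 0, with summed levels of 37.3 to 50.1 CPM for the basal list (mainly ACTA2), 88.3 to 128 for the fibroblast list (mainly COL1A1), 1.75 to 3.01 for the immune list and at most 0.268 for endothelium, and 0 of the tested members of these 4 lists passed the adjusted P value in the interaction. Over all genes, 1.25% passed it as higher and 1.5% as lower. Of the 10 luminal markers, 3 passed it as higher, with 9 positive values. With olaparib, 8 of them fell in WT (8.05% of all genes did) and 5 in PARP1 KO (4.35%) by the adjusted P value. Library totals ran from 29760855 to 52251288 counts. WT DMSO replicate 1 and PARP1 KO olaparib replicate 3 stood apart: long non-coding RNA (lncRNA) genes took 1.265% and 1.171% of their counts, against 0.915% to 1.09% in the other 10 libraries. Without both libraries, 2 of the 10 luminal markers passed as higher in the interaction. Such values are given beside several of the results.

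Fewer genes were called with olaparib in PARP1 KO than in WT cells, and most genes of the interaction were called in WT cells. Calls required a difference of more than 1.5-fold and, in the edgeR quasi-likelihood F test over 23078 genes, an adjusted P value under the 0.05 limit. With olaparib, 452 genes (1.96% of those tested) were called higher and 488 (2.11%) lower in WT, compared with 131 (0.568%) and 79 (0.342%) in PARP1 KO. The PARP1 KO counts depended on single libraries: 74 were higher without PARP1 KO DMSO replicate 3, and 45 and 46 were lower without PARP1 KO DMSO replicate 2 and PARP1 KO olaparib replicate 1. Over all single libraries left out, 74 to 185 were higher and 45 to 106 lower, and 155 were lower without WT DMSO replicate 1 and PARP1 KO olaparib replicate 3. For the interaction, 98 genes (0.425%) were called higher and 93 (0.403%) lower, while by the adjusted P value alone 288 (1.25%) were higher and 346 (1.5%) lower. The median interaction over all genes was 0.0054, close to 0. In such bulk libraries, fewer cells of a type and less RNA per cell cannot be told apart.

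Among the 93 genes called lower in the interaction, 57 were called with olaparib in WT alone, 4 in PARP1 KO alone, 5 in both and 27 in neither. The 57 had a median log2 fold change of 0.88 in WT and 0.0287 in PARP1 KO. Among the 98 called higher, 65 were called in WT alone, with medians of -1.04 in WT and 0.343 in PARP1 KO, whereas 10 were called in PARP1 KO alone, 2 in both and 21 in neither. The interaction shares its libraries with both responses, so these values are a description. The WT and PARP1 KO responses share no library: the 452 genes called higher in WT had a median of 0.832 there and 0.319 in PARP1 KO, with the same sign in 84.5%, and the 488 called lower had medians of -1.0 and -0.154, with the same sign in 62.5%. In the opposite view, the 131 genes called higher in PARP1 KO had a median of 0.781 there and 0.494 in WT, with the same sign in 76.3%, and the 79 called lower had medians of -0.82 and -0.526, with the same sign in 84.8%. Across 13454 genes averaging 1 CPM or more, Pearson's r between the responses was 0.319 (genes are not independent replicates).

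**Figure D1:**
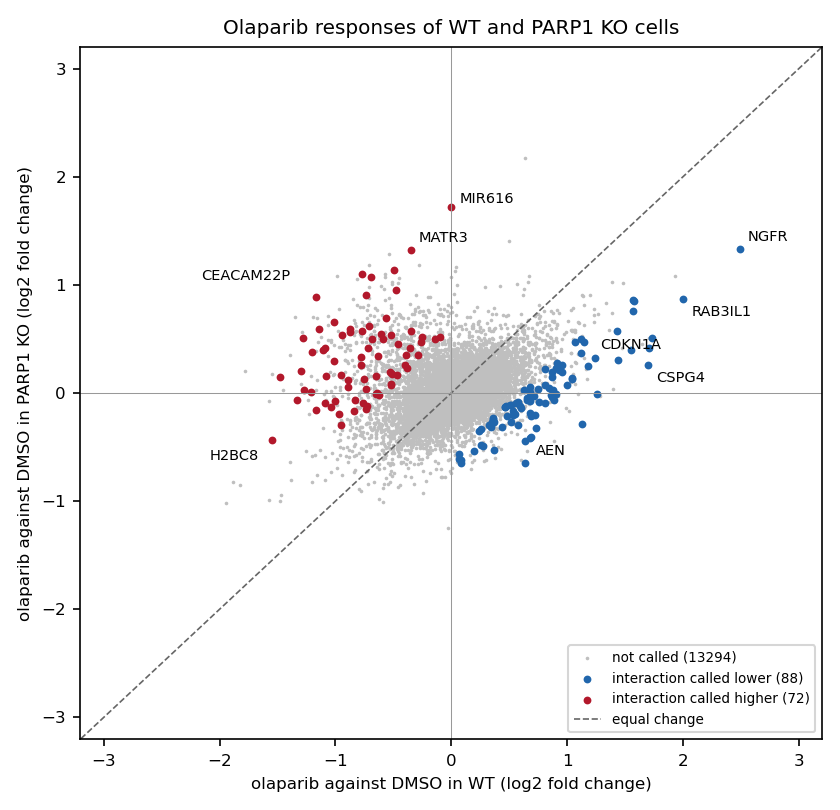
Log2 fold change with olaparib in WT cells (horizontal axis) and PARP1 KO cells (vertical axis) for 13454 genes averaging 1 CPM or more, 1 point a gene, with 88 genes called lower in the interaction in blue, 72 called higher in red, the others in grey and equal change as a dashed line. Most blue points lie to the right of 0 on the horizontal axis and most red points to the left of it.

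Genes of DNA replication and S phase entry were lower in the interaction. These genes license and fire replication origins and make nucleotides, and many are transcribed through E2F factors. Of 28 tested genes of a replication list, 27 had a negative interaction and 21 passed the adjusted P value as lower (1.5% of all genes did), with 5 called and 0 higher. The list median was -0.34, against 0.0054 over all genes, and was made of opposite movements: 0.182 in WT and -0.15 in PARP1 KO. By the adjusted P value alone, 14 of the 28 rose and 1 fell in WT (10.9% of all genes rose), whereas 1 rose and 11 fell in PARP1 KO (4.35% of all genes fell). Without WT DMSO replicate 1 and PARP1 KO olaparib replicate 3, 18 of the 28 passed as lower and the median was -0.352.

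Sequences upstream of E2F1, E2F2 and CDT1, which were called lower, are shown because they hold the letters of an E2F element, TTTCCCGC or TTTGGCGC on either strand, in capitals. They are the 250 bases before the RefSeq start site (GRCh38.p14, 5′ to 3′ of the gene) at chr20:33686386-33686635 (minus strand) for E2F1, at chr1:23531234-23531483 (minus strand) for E2F2 and at chr16:88803539-88803788 (plus strand) for CDT1.
E2F1: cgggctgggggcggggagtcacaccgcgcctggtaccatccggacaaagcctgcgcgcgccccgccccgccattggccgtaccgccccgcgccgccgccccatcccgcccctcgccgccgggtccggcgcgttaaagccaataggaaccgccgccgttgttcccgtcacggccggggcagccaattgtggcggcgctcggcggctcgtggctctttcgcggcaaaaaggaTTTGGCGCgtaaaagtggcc
E2F2: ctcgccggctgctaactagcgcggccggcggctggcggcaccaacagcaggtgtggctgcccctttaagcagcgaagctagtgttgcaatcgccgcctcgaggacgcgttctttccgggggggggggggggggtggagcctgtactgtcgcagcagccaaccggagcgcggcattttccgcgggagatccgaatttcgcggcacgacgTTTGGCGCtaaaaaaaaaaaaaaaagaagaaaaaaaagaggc
CDT1: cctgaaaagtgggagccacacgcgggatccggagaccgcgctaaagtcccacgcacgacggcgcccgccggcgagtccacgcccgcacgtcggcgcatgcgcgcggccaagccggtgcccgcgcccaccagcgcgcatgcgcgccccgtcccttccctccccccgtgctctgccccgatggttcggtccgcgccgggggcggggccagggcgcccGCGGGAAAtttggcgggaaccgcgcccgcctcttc
The element began at -20 in E2F1, -42 in E2F2 and -35 in CDT1, and at -8 in DTL. It was found in 12 of the 25 replication genes that have a sequence in the RefSeq table (48%) and in 7 of the 71 such genes called lower (9.86%: AEN, CDC25A, CDT1, DTL, E2F1, E2F2 and ZNF367), compared with 1.96% of 27305 promoters. Other motifs searched were also more frequent among the 71, with 74.6% against 42.3% of promoters for the GC box (GGGCGG), 45.1% against 31.9% for the XRE (GCGTG) and 5.63% against 1.77% for the CRE (TGACGTCA). Among the replication genes, the median interaction was -0.36 in the 12 with a match and -0.28 in the 13 without. The windows of CDC6, MCM10, EXO1, AUNIP, PSMC3IP and CDKN1A, also called lower, held 0 matches. Many replication genes are E2F targets by choice of the list, so the share in that list says nothing of the interaction. A match describes letters only.

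DTL (chr1:212035553-212107400, plus strand), the substrate receptor of the CRL4 ubiquitin ligase that destroys CDT1 during S phase and no member of the list, had the smallest P value among the genes named. It stood at 57.4, 62.4 and 64.5 CPM in WT with DMSO and at 126, 126 and 128 with olaparib, compared with 73.0, 71.0 and 71.2 and then 80.0, 77.0 and 80.5 in PARP1 KO. The 3 WT olaparib libraries were above all others and all 6 PARP1 KO libraries lay between 71.0 and 80.5 CPM (interaction -0.90 ± 0.072 SE, adjusted p = 2e-09, edgeR).

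CDT1, which loads the MCM helicase onto origins and must be removed before a second round, showed the same order. Its levels were 59.6, 64.4 and 63.4 CPM in WT with DMSO and 126, 116 and 121 with olaparib, and 73.4, 69.6 and 63.7 and then 88.7, 79.4 and 80.0 in PARP1 KO. It was the only one of the 28 that rose in PARP1 KO by the adjusted P value (0.26 against 0.96 in WT, interaction -0.69 ± 0.081, adjusted p = 3.4e-06, edgeR).

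E2F2, an activator of S phase genes, stood at 15.9, 14.4 and 16.4 CPM in WT with DMSO and at 27.4, 28.7 and 31.0 with olaparib, whereas the PARP1 KO libraries ranged from 16.8 to 22.1 with DMSO and from 18.8 to 19.8 with olaparib, so that the olaparib values lay inside the DMSO range (interaction -0.91 ± 0.12, adjusted p = 1.9e-05, edgeR). MCM10, which links the helicase to polymerase alpha, went from 27.4, 32.8 and 31.9 CPM to 50.2, 51.2 and 50 in WT, and was 41.7, 37.6 and 36.5 with DMSO and 34.8, 38.6 and 40.5 with olaparib in PARP1 KO (-0.74 ± 0.097). The calls of DTL, CDT1, E2F2 and MCM10 held with each of the 12 libraries left out. CDC6, the origin licensing ATPase, and E2F1 both had an interaction of -0.59 and lay close to the 1.5-fold limit: their calls were lost without 3 and 6 of the 12 libraries, in turn, although the adjusted P value was 4.2e-05 and 2.5e-05 (edgeR).

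The other 16 genes that passed the adjusted P value did not reach 1.5-fold. CCNE2, the cyclin that drives S phase entry, had an interaction of -0.55 and CLSPN, the adaptor of the ATR checkpoint, of -0.53, both with a rise in WT (0.54 and 0.49) and values of -0.01 and -0.04 in PARP1 KO. The MCM helicase subunits differed from these: MCM3, MCM5 and MCM6 had WT values of 0.00, -0.04 and -0.14, none past the threshold, and fell by 0.30, 0.42 and 0.48 in PARP1 KO. MCM2 rose in WT (0.24) and fell by 0.27 in PARP1 KO. The 7 remaining genes, among them TYMS, UNG and POLE, had interactions between -0.30 and 0.19. With DMSO the PARP1 KO level was above the WT level for all 21 genes that passed, with a median of 0.25 and 13 past the adjusted P value (0.854% of all genes were higher). Of the 7 others, 6 were above the WT level, with a median of 0.2 and 1 past it. That comparison and the interaction share the DMSO libraries with opposite signs.

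**Figure D2:**
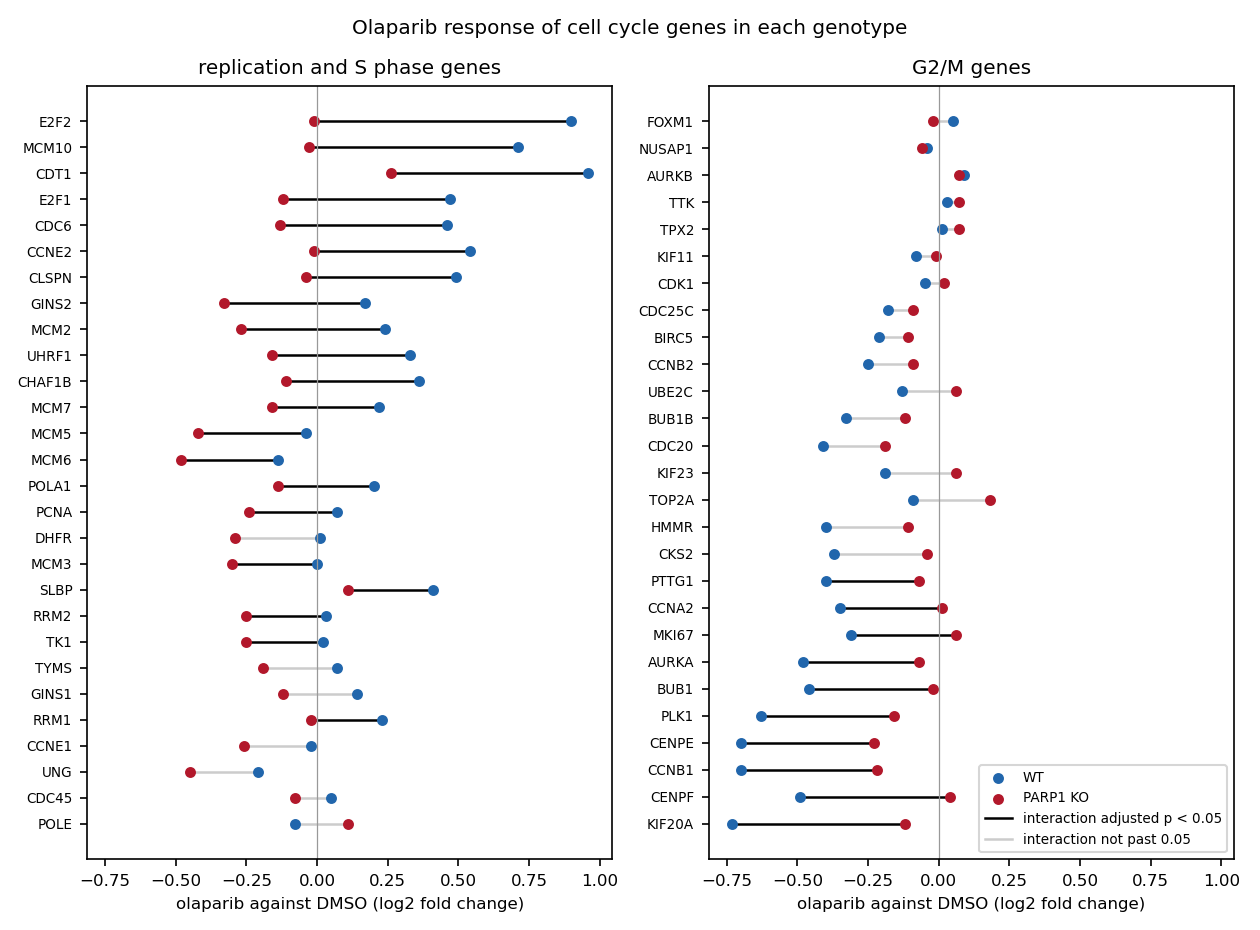
Log2 fold change with olaparib (horizontal axis) in WT (blue) and PARP1 KO (red) for 28 replication and S phase genes (left) and 27 G2/M genes (right), ordered by interaction, with a black line joining the genotypes where the interaction passed an adjusted P value of 0.05 and a grey line elsewhere. The blue point is right of the red one for 27 of 28 replication genes and left of it for 24 of 27 G2/M genes.

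EXO1, the exonuclease that resects broken ends, stood at 25, 27.6 and 30.8 CPM in WT with DMSO and at 53, 54.0 and 51.9 with olaparib, and at 28.0, 31.4 and 34.1 and then 35.2, 35.9 and 36.7 in PARP1 KO (interaction -0.72 ± 0.10, adjusted p = 4.2e-05, edgeR). PSMC3IP, a protein that promotes homologous pairing in meiosis, rose in WT from 23.6, 23.5 and 25.7 to 48.6, 49.5 and 47.3 CPM and lay between 22.8 and 28.7 CPM in all 6 PARP1 KO libraries (-0.93 ± 0.10, adjusted p = 1e-06, edgeR). AUNIP, an end-binding protein that promotes resection, rose in WT (0.69) and fell by 0.41 in PARP1 KO (interaction -1.11 ± 0.15). Of 29 homologous recombination and Fanconi anemia genes, 5 passed the adjusted P value as lower (1.5% of all genes did), with 1 called (EXO1), and 0 as higher. Among them were XRCC3 (-0.45), BRCA2 (-0.36) and BRCA1 (-0.34). The list median was -0.211, and 24 of the 29 values were negative. FANCD2 and FANCA, core members of the Fanconi pathway, had values of 0.13 and 0.15, neither past the threshold.

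The list of p53 targets was lower in part. T47D cells carry a mutant p53, so this list is used here as a set of stress-responsive genes. Of 23 tested, 6 passed the adjusted P value as lower (AEN, CDKN1A, BTG2, TP53I3, PHLDA3 and TNFRSF10B, compared with 1.5% of all genes), 1 as higher (POLH, 0.30, compared with 1.25%), and 3 were called lower (0.403% of all genes). The list median was -0.294 (0.308 in WT and 0.137 in PARP1 KO), and MDM2, the feedback regulator of p53, had an interaction of -0.01 ± 0.073 with values of 0.06 and 0.05 in WT and PARP1 KO.

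CDKN1A (chr6:36676460-36687339, plus strand) encodes the CDK inhibitor p21. It stood at 49.8, 63.9 and 63.6 CPM in WT with DMSO and at 137, 133 and 132 with olaparib, and at 58.8, 65.2 and 64.8 and then 83.6, 71.8 and 69.5 in PARP1 KO. The interaction was -0.92 ± 0.13 (adjusted p = 0.0017, edgeR), and -0.77 without WT DMSO replicate 1 and PARP1 KO olaparib replicate 3.

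AEN, an exonuclease of the apoptotic response, moved in opposite directions. It rose from 17.7, 18.9 and 16.6 to 28.0, 30.3 and 26.9 CPM in WT and fell from 25.2, 23.9 and 20.9 to 15.2, 18.1 and 19.1 CPM in PARP1 KO, without overlap within either genotype (interaction -1.09 ± 0.12, adjusted p = 1e-06, edgeR). With DMSO its level was already higher in PARP1 KO (0.39, adjusted p = 0.012, edgeR).

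BTG2, an antiproliferative immediate early gene, and PMAIP1, which encodes the pro-death BH3 protein NOXA, rose in both genotypes and less in PARP1 KO. BTG2 was 28.8, 31.2 and 28.4 CPM with DMSO and 94.2, 84.8 and 83.9 with olaparib in WT, compared with 25.6, 25 and 26 and then 54.7, 43.9 and 39.8 in PARP1 KO (interaction -0.72 ± 0.13). PMAIP1 rose by 1.57 in WT and by 0.76 in PARP1 KO (interaction -0.81 ± 0.17, adjusted p = 0.0061, edgeR). It was the only one of 15 BCL2 family genes called.

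**Figure D3:**
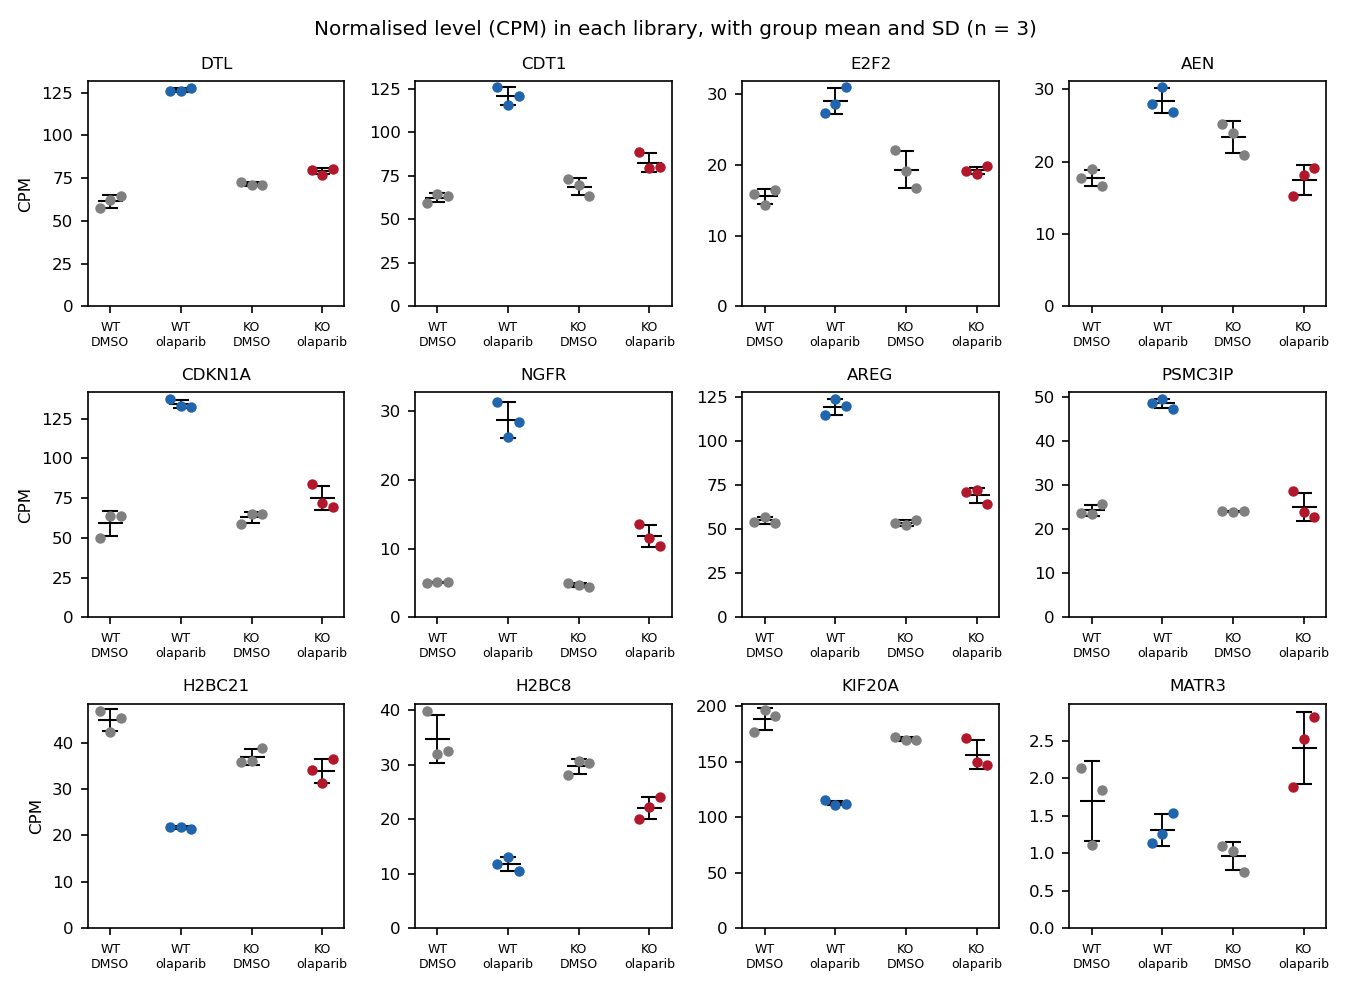
Level in CPM (vertical axis, from 0) of 12 named genes in each of the 12 libraries, with points for libraries and black bars for the mean and SD of 3 libraries. For DTL, CDT1, E2F2, CDKN1A, NGFR, AREG and PSMC3IP the 3 WT olaparib libraries (blue) lie above the other 9, and for H2BC21, H2BC8 and KIF20A they lie below.

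Some genes rose in both genotypes and by less in PARP1 KO. NGFR (chr17:49495293-49515008, plus strand), the low-affinity neurotrophin receptor, had the largest WT response of the genes named: 5.03, 5.14 and 5.17 CPM with DMSO and 31.4, 26.3 and 28.5 with olaparib. In PARP1 KO it went from 4.95, 4.75 and 4.45 to 13.6, 11.5 and 10.4 CPM, where the DMSO levels were a little lower than in WT (difference -0.12, not past the threshold), and the rise was 2.49 in WT and 1.33 in PARP1 KO (interaction -1.16 ± 0.15, adjusted p = 1e-05, edgeR). RAB3IL1, an exchange factor for Rab GTPases, behaved alike, with rises of 2.0 and 0.87 (-1.13 ± 0.21).

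AREG (chr4:74445136-74455005, plus strand) encodes amphiregulin, an EGF receptor ligand and estrogen-responsive gene. Its levels were 54.4, 57.1 and 53.6 CPM with DMSO and 115, 124 and 120 with olaparib in WT, compared with 53.6, 52.2 and 55.4 and then 71.5, 72.3 and 64.4 in PARP1 KO, so that the genotypes overlapped with DMSO and did not overlap with olaparib (interaction -0.75 ± 0.077, adjusted p = 3.5e-07, edgeR). It was the only one called of 14 EGF family genes, which had a median interaction of 0.0167 with 7 positive and 7 negative values, and of 27 estrogen receptor targets. In the latter list 4 genes passed the adjusted P value as higher (1.25% of all genes did), among them the progesterone receptor gene PGR (0.51), STC2 (0.41) and CCND1 (0.37), all of which fell in WT (by 0.62, 0.65 and 0.77), and 3 as lower (1.5% of all genes did), AREG, SLC7A5 and RARA. Without both libraries that stood apart, 4 passed as higher and 1 (AREG) as lower, and PGR and STC2 no longer passed (adjusted p = 0.094 and 0.11, edgeR). ESR1 and GATA3, defining luminal factors, were higher in the interaction by 0.27 and 0.32, with falls of 0.45 and 0.28 in WT. Their adjusted P values were 0.033 and 0.005 (edgeR), and 0.091 and 0.0047 without the libraries with the highest lncRNA shares.

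Among genes averaging 1 CPM or more, most of those with the largest negative interaction had low levels. CSPG4, a membrane proteoglycan, stood at 1.22, 2.11 and 2.26 CPM with DMSO and 5.43, 6.35 and 6.84 with olaparib in WT, and between 2.55 and 3.52 CPM in all 6 PARP1 KO libraries (interaction -1.44 ± 0.25, adjusted p = 0.001, edgeR). With it came RASGRP1, an activator of Ras (-1.42), ARAP3 (-1.29), RIMS4 (-1.29), the ephrin receptor EPHB2 (-1.27), INHBE, an activin subunit (-1.21), DEPP1 (-1.15) and the imprinted lncRNA H19 (-1.13). Of the 12 largest, the calls of CSPG4, NGFR, RAB3IL1, AUNIP and AEN held with each of the 12 libraries left out, while that of EPHB2 held in 2 of these 12 fits, that of RASGRP1 in 4 and those of RIMS4 and H19 in 5. By lists, RELB of the noncanonical NF-kB pathway (-0.88), the LXR target MYLIP (-0.62), the ERK phosphatase DUSP5 (-0.60) and the clock repressor NR1D1 (-0.72) were each the only gene called. The call of RELB held in all 12 fits, those of MYLIP and DUSP5 in 8 each and that of NR1D1 in 2. LRIG3, a transmembrane regulator of receptor tyrosine kinases, had an interaction of -0.77 ± 0.11 with neither response called (0.27 in WT and -0.49 in PARP1 KO).

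G2/M genes moved the other way. These genes build the spindle, drive entry into mitosis or end it. Of 27 tested, 24 had a positive interaction and 10 passed the adjusted P value as higher (1.25% of all genes did), with 1 called (KIF20A) and 0 lower. The list median was 0.256, with -0.312 in WT and -0.0449 in PARP1 KO. In WT 17 of the 27 fell and 0 rose by the adjusted P value, compared with 4 and 0 in PARP1 KO. Over all genes, 8.05% fell in WT and 4.35% in PARP1 KO. Without the libraries with the highest lncRNA shares, 14 passed as higher and the median was 0.35.

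KIF20A (chr5:138178719-138187723, plus strand), a kinesin of the midzone spindle, stood at 177, 196 and 191 CPM in WT with DMSO and at 115, 111 and 112 with olaparib, and at 172, 169 and 169 and then 171, 150 and 147 in PARP1 KO (interaction 0.61 ± 0.074, adjusted p = 4.7e-06, edgeR). The olaparib libraries of WT were below all others, and in PARP1 KO replicate 1 lay inside the DMSO range. Its call was lost without PARP1 KO olaparib replicate 1 or WT DMSO replicate 2. CENPF and CENPE, kinetochore proteins, had interactions of 0.53 and 0.47, the mitotic cyclin gene CCNB1 of 0.48 and the kinase gene PLK1 of 0.46, each with a fall in WT (by 0.49, 0.70, 0.70 and 0.63). FOXM1, a transcription factor of this group, did not follow (-0.07 ± 0.064). KIF14, a cytokinesis kinesin outside the list, was called at 0.60 ± 0.078, with a value of -0.52 in WT and 0.08 in PARP1 KO. The call of KIF14 held in 8 of the 12 fits with 1 library left out.

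Histone genes of the clusters formed a group that was noticed after the values were seen. Histone H2B packs DNA into nucleosomes, and its octamer element is a known feature of H2B promoters. Of 57 tested genes with a clustered histone symbol, 8 were called higher in the interaction (0.425% of all genes) and 0 lower (0.403%). By the adjusted P value 1 passed as lower (1.5% of all genes did). All 8 were among the 25 averaging 1 CPM or more, which had a median of 0.455. They were H2BC7 (1.27), H2BC8 (1.12), H2BC21 (0.92), H2BC26 (0.68), the H2B pseudogenes H2BC19P (1.01) and H2BC20P (0.77), H3C10 (0.65) and H4C16 (1.43). The median interaction of the 57 was 0.536, with -0.567 in WT and -0.119 in PARP1 KO. In WT 13 were called lower (2.11% of all genes) and 0 higher. In PARP1 KO 0 were called and 6 passed the adjusted P value as lower (4.35% of all genes did).

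H2BC21 stood at 46.8, 42.2 and 45.3 CPM in WT with DMSO and at 21.8, 21.9 and 21.4 with olaparib, and at 35.7, 36.0 and 38.9 and then 34.0, 31.2 and 36.4 in PARP1 KO. The interaction was 0.92 ± 0.093 (adjusted p = 3.5e-07, edgeR), and with DMSO its level was lower in PARP1 KO by 0.28 (adjusted p = 0.021, edgeR). H2BC8 went from 39.8, 32.0 and 32.5 to 11.8, 13.1 and 10.5 CPM in WT and from 28.2, 30.7 and 30.4 to 20, 22.3 and 24.1 CPM in PARP1 KO. It thus fell by 1.55 in WT and by 0.43 in PARP1 KO (adjusted p = 4e-06 for the interaction, edgeR). The calls of H2BC7, H2BC8, H2BC21, H2BC19P and H2BC20P held with each of the 12 libraries left out, whereas that of H2BC26 held in 3 and that of H3C10 was lost in 2. Without both libraries that stood apart, H2BC26 had a value of 0.39 and H3C10 of 0.51, neither called (adjusted p = 0.3 and 0.061, edgeR). The histone list among the 33 lists, with 12 tested genes of which some are clustered, had a median interaction of 0.107, with 1 gene (H2BC21) higher and 1 lower by the adjusted P value. Cluster histone mRNAs mostly lack a poly(A) tail and their sequences are nearly alike, so counts from polyadenylated RNA assign them with uncertainty.

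The 250 bases before the start sites of H2BC7 at chr6:26199266-26199515 (plus strand) and H2BC21 at chr1:149886683-149886932 (minus strand) are shown from RefSeq (GRCh38.p14) because both hold the octamer ATTTGCAT, in capitals.
H2BC7: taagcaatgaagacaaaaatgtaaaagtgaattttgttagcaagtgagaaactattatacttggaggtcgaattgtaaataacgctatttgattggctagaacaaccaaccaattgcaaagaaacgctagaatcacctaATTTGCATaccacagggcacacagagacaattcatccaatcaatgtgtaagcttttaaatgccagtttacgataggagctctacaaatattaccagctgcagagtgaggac
H2BC21: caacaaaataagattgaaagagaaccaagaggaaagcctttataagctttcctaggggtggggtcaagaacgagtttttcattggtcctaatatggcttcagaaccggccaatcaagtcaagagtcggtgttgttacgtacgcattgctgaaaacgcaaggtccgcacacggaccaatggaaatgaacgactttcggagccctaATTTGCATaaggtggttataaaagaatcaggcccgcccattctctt
The octamer began at -111 in H2BC7 and at -46 in H2BC21, and at -48 in H2BC8. Of the 6 H2B symbols called higher, 4 had a sequence in the table and 3 of these held it, compared with 1.66% of 27305 promoters. Since H2B promoters are known for the octamer and H2B genes not called were not compared, this share cannot be tied to the interaction. The octamer was searched after the values were seen, and of the other motifs the letters of the interferon-response element ISRE, GAAANNGAA, were also in 3 of the 4 windows, compared with 7.06% of promoters.

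Most of the 98 genes called higher, those named above included, were not protein-coding. Of the 98, 39 were lncRNA genes (20.1% of genes tested), 14 pseudogenes and 32 protein-coding (64.5% of genes tested), compared with 89 protein-coding among the 93 called lower. Their median level was 2.07 CPM, against 8.07 CPM for the genes called lower. Leaving out WT DMSO replicate 1 gave 45 higher and 73 lower, leaving out PARP1 KO olaparib replicate 3 gave 63 and 70, and leaving out both gave 38 and 72. The total of 191 moved by more than 1.5 times without PARP1 KO olaparib replicate 1 (466), PARP1 KO olaparib replicate 2 (102), PARP1 KO DMSO replicate 2 (124), WT olaparib replicate 1 (123), WT olaparib replicate 2 (103), WT DMSO replicate 1 (118) or WT DMSO replicate 2 (297). With each of the 12 libraries left out in turn, 20 of the 98 genes called higher and 35 of the 93 called lower were called every time, 11 and 34 of them protein-coding. The part of the lncRNA share in these calls was not tested.

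**Figure D4:**
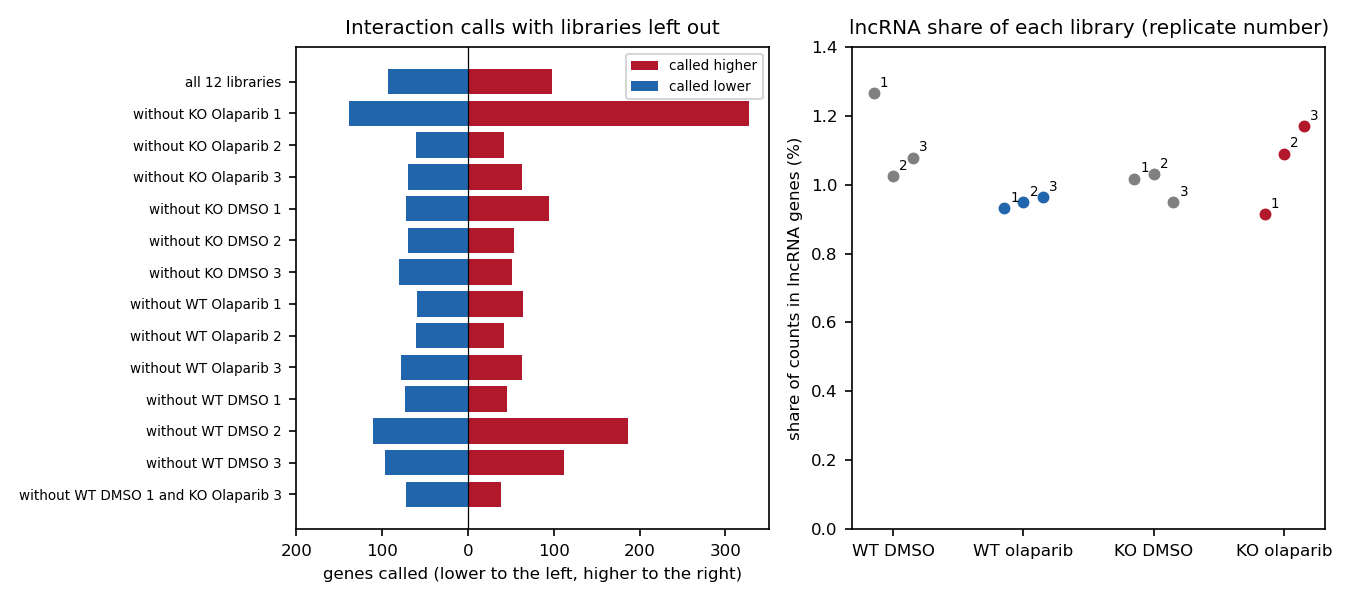
Genes called in the interaction (left, horizontal axis, higher in red and lower in blue) with all 12 libraries, with each library left out and with both WT DMSO replicate 1 and PARP1 KO olaparib replicate 3 left out, and the share of each library's counts in lncRNA genes in percent (right, numbers mark replicates). Genes called higher ranged from 38 to 328 and genes called lower from 59 to 138, and the highest lncRNA shares are those of WT DMSO replicate 1 (1.265%) and PARP1 KO olaparib replicate 3 (1.171%).

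Of the 98 genes called higher, 32 had no symbol and were not named by rule. Among them, 7 at 1 CPM or more had values above the smallest of the 12 genes named next, for example the lncRNA gene ENSG00000272906 (1.79), which was called with each of the 12 libraries left out. Among genes with a symbol and the same minimum, the largest positive interactions were those of CEACAM22P (2.06), LINC02656 (1.87), TEKTIP1 (1.76), HEXIM2-AS1 (1.73) and the locus of MIR616 (1.72, reads over the hairpin locus and not the mature microRNA). LINC02656 stood at 2.79, 1.51 and 1.67 CPM in WT with DMSO, 1.21, 0.884 and 1.35 with olaparib, 1.16, 0.839 and 0.805 in PARP1 KO with DMSO and 1.36, 2.03 and 2.68 with olaparib. WT DMSO replicate 1 and PARP1 KO olaparib replicate 3 held the highest values of their groups, and without both the interaction was 1.33 (adjusted p = 0.048, edgeR). MATR3, an RNA-binding nuclear matrix protein, was measured under an identifier whose exons overlap those of another gene over 42.5% of their bases, so its low counts are uncertain. It was called in PARP1 KO alone, from 1.10, 1.03 and 0.751 to 1.88, 2.52 and 2.82 CPM (interaction 1.67 ± 0.36). WASH2P (1.63), CAPN10-DT (1.58), FERMT3 (1.51), ADAM8 (1.46) and UNC5CL (1.43) completed the 12 largest with a symbol, with H4C16. ENSG00000276248, also without a symbol, was called in PARP1 KO alone with a smaller P value than WASH2P (adjusted p = 0.008 against 0.013, edgeR). Without both libraries, 4 of the 12 were still called (H4C16, WASH2P, MATR3 and LINC02656), compared with 9 of the 12 largest negative ones.

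The gene groups that follow held at most 1 call each in the interaction. Of all 33 lists, those described above included, 13 held at least 1 called gene and 20 held 0. Over all genes 0.425% were called higher and 0.403% lower, so 0 calls in a short list does not set it apart. Of 24 ATF4 and unfolded protein response genes, 12 were called higher with olaparib in WT (1.96% of all genes) and 5 in PARP1 KO (0.568%), and 0 in the interaction, where SLC3A2 (-0.40), ATF3 (-0.44) and SLC7A5 (-0.23) passed the adjusted P value as lower (1.5% of all genes did) and the median was -0.168. Without both libraries that stood apart, SLC3A2 passed as lower and XBP1 (0.20) as higher, and ATF3 and SLC7A5 no longer passed (adjusted p = 0.13 and 0.12, edgeR). Stress genes such as SESN2 (0.66 in WT and 0.60 in PARP1 KO), TRIB3 (0.73 and 0.52) and HERPUD1 (0.59 and 0.61) rose in both. Of 18 clock genes, 11 rose by the adjusted P value in each genotype, as did 10.9% of all genes in WT and 5.14% in PARP1 KO. Of 20 sterol pathway enzymes 0 were called in either genotype or in the interaction. In the interaction SQLE alone passed the adjusted P value, as higher (0.29), as did 1.25% of all genes. Without both libraries, 3 of the 20 passed as higher. Of 19 sterol sensing and SREBP target genes, the fatty acid genes FASN (0.44), ACACA (0.27) and SCD (0.24) passed as higher (1.25% of all genes did). In that list 0 were called, and FASN no longer passed without both libraries (adjusted p = 0.11, edgeR). In the LXR list, 1 of 15 was called (MYLIP), and this call held in 8 of the 12 fits with 1 library left out.

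Of 20 tested genes of the PARP family and ADP-ribose turnover, 0 were called. HPF1, the cofactor that directs PARP1 and PARP2 to serine, had an interaction of -0.40 and TIPARP of -0.35. Both passed the adjusted P value as lower, as did 1.5% of all genes. Neither passed it without the libraries with the highest lncRNA shares (adjusted p = 0.067 and 0.055, edgeR). PARP2, the other main target of the drug, had an interaction of -0.03 ± 0.083, and the tankyrase gene TNKS rose in both genotypes (0.45 and 0.43). The WNT list had a median of -0.659 over 14 genes, but 8 of these had a mean below 1 CPM, 0 were called, and the median was -0.182 over the other 6. Of 35 interferon-stimulated genes and of 13 mitochondrially encoded genes 0 were called.

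The niraparib interaction, from the fit of all 18 libraries, shares both DMSO groups with that of olaparib, so the drugs were compared by a contrast from which DMSO cancels: the genotype difference with olaparib minus that with niraparib, at the same dose and time. In it, 506 genes (2.05% of 24675) were called higher and 294 (1.19%) lower. Of the 93 genes called lower for olaparib, 31 were called higher in this contrast and 0 lower, with medians of -0.74 for olaparib and -1.25 for niraparib. Of the 98 called higher, 2 and 13 were called, with medians of 1.29 and 1.33.

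The 4 genes with the smallest P value on the lower side of this contrast were mitotic. KIF20A had an interaction of 0.61 ± 0.074 with olaparib and 2.77 with niraparib (difference -2.16, adjusted p = 5.6e-20, edgeR), and PLK1 of 0.46 and 2.33. PTTG1, the securin that delays the parting of sister chromatids, had 0.33 and 1.46. CDC20, an activator of the anaphase-promoting complex, had 0.23 and 1.36. All 27 G2/M genes passed the adjusted P value of the difference as lower, as did 6.57% of all genes. The 4 genes named on the other side were of other kinds: ZBTB5 had interactions of -0.45 and -1.84 (difference 1.39), the ribosome biogenesis factor RRP12 of -0.06 and -1.26, TP53I11 of -0.55 and -1.49 and the nucleolar helicase DDX21 of -0.19 and -1.05. Of the 28 replication genes, 8 passed as higher in the difference (6.95% of all genes did) and 0 as lower, and CDT1 had -0.69 with olaparib and -0.67 with niraparib (difference -0.01, adjusted p = 0.96, edgeR).

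**Figure D5:**
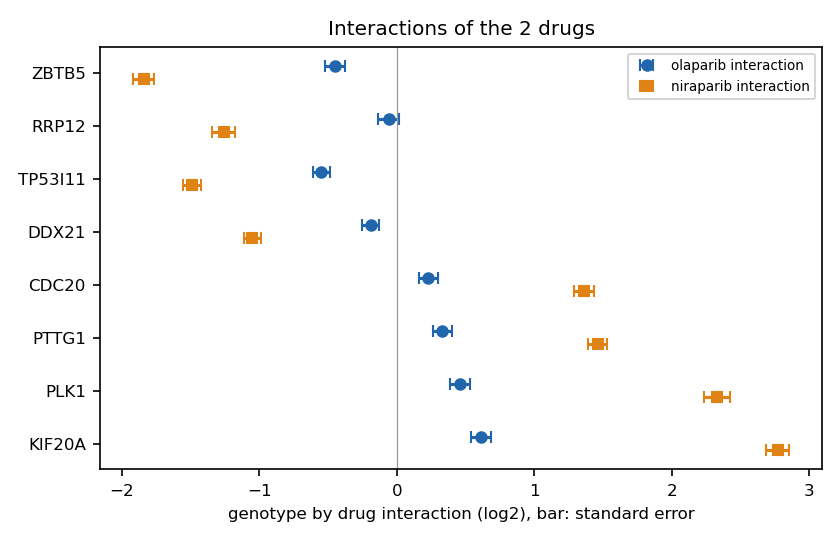
Genotype by drug interaction on the log2 scale (horizontal axis) of 8 genes with olaparib (blue circles) and niraparib (orange squares), with bars for the standard error of the fit. For all 8 the niraparib value lies farther from 0, and both drugs share the DMSO libraries.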

How the data were processed

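RNA-seq of polyadenylated RNA from T47D cells was analysed from the count tables the authors deposited, with 1 file per library. Per the methods and labels, the authors trimmed reads with Trimmomatic, aligned them with STAR to GRCh38, marked duplicates with Picard and counted reads per gene with featureCounts 2.0.0 (exons, reverse strand, primary alignments, Ensembl 96 annotation). The fate of the marked duplicates at the counting step is not given in the sources used here. The deposited values are raw read counts, and levels are CPM after TMM scaling. Labels and methods differ on medium, RNA input and library kit.

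The 12 DMSO and olaparib libraries were fitted together with edgeR 4.0.16 in R 4.3.3 (quasi-likelihood F test, TMM, robust dispersions, genes with more than 10 counts over the libraries, Benjamini-Hochberg adjustment). A call needed an adjusted P value under 0.05 and more than 1.5-fold. Standard errors were the absolute log2 fold change over the square root of F. The comparison with niraparib came from the fit of all 18 libraries. Totals of the 12 libraries were 29760855 to 52251288 counts, and the biological coefficient of variation was 6.72%. Replicates differed by more than sampling noise (chi-square per gene 3.15 to 19). On simulated data for the interaction of 12 libraries (22549 genes), 184 of 200 genes changed by 1 on the log2 scale were recovered with 8 others called, and at 0.75 (22544 genes) 153 of 200 with 7 others. The changed genes were drawn among those with higher counts, and libraries were drawn independently around a common mean for each gene. These numbers therefore do not carry over to genes of low level or to variation shared between libraries.

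Named were among genes averaging 1 CPM or more, the 12 called genes with the largest interaction in each direction, called genes in the lists (at any level), the 4 with the smallest p of each pattern of calls (WT alone, PARP1 KO alone, both, neither), the 4 of each direction for the difference between drugs, and PARP1. Only genes with a symbol were named, in all parts of this rule, although it was written with that condition for the largest interactions alone. The clustered histone symbols and the octamer were chosen after their values were seen. The comparison and the gene lists were chosen with earlier results of these data known. Alternatives were DESeq2 1.42.0, other scalings, filters, thresholds and dispersions, a replicate block, and each library left out. Leaving out WT DMSO replicate 1 and PARP1 KO olaparib replicate 3 together, and the leave-out fits of the drug difference, were chosen after seeing the data. Promoters were matched by symbol to RefSeq (GRCh38.p14), with both strands searched.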

Additional observations from a re-analysis of the deposited data

Results flagged for a closer look

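These results are listed because the difference between the genotypes, or between the drugs, passed its own edgeR test. For the interaction with olaparib 98 genes were called higher and 93 lower, and for the olaparib interaction minus the niraparib interaction 506 were called higher and 294 lower. Among the genes with a symbol, a mean of at least 1 CPM and the smallest P value of each pattern of calls, those lower in the interaction were NGFR (-1.16), RAB3IL1 (-1.13), PSMC3IP (-0.93), DTL (-0.90), LRIG3 (-0.77), AREG (-0.75), BTG2 (-0.72), CDC6 (-0.59) and E2F1 (-0.59). Those higher were KIF14 (0.60), H2BC21 (0.92), WASH2P (1.63), MATR3 (1.67), MIR616 (1.72), TEKTIP1 (1.76) and LINC02656 (1.87). The gap test for a single outlying value was not run in groups of 3 libraries.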

How the results depend on the processing

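The direction of all 50 named genes called in the interaction was kept under every alternative run, and between 4 and 15 of them lost the call with 1 library left out, 15 with WT DMSO replicate 1 and PARP1 KO olaparib replicate 3 both left out, 8 with all 18 libraries in the fit and 1 with DESeq2. The 191 genes called in the interaction became 431 without a filter on low counts, 110 without both libraries, 634 by the adjusted P value alone and 46 at an absolute log2 value over 1.5. For genes called higher (98) these were 304, 38, 288 and 41, and DESeq2 gave 164. For genes called lower (93), the adjusted P value alone gave 346 and the log2 limit 5. With single libraries left out the total ran from 102 to 466, higher calls from 42 to 328 and lower calls from 59 to 138. For olaparib in WT, the adjusted P value alone gave 4365 (2507 higher, 1858 lower) and the log2 limit 162 (44 and 118). In PARP1 KO these were 2190 (1186 and 1004) and 26 (17 and 9), lower calls were 155 without both libraries, and with single libraries left out higher calls ran from 74 to 185 and lower calls from 45 to 106. PARP1 KO against WT with DMSO gave 44 genes, 131 without a filter, 79 with DESeq2, 14 without both libraries and 10 to 85 with single libraries left out. The cause of these shifts was not tested beyond the filter and thresholds themselves. Correlations between same-numbered libraries of different groups ran from -0.507 to 0.445 and between differently numbered ones from -0.482 to 0.475, so replicate numbers gave no sign of pairing. Variation was shared between some libraries, with 0.456 between WT DMSO replicate 1 and PARP1 KO olaparib replicate 3. With a replicate block the interaction had 83 higher and 90 lower calls over all libraries and 94 and 86 within genotype. Genes below 1 CPM, 26 of the 98 called higher, are limited by depth.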
